A study of Mus musculus with 7 samples.

Results

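Scavenger and efferocytosis receptors are the surface proteins with which Kupffer cells, macrophages that reside in liver sinusoids, take up bacteria, modified lipoproteins, hemoglobin and dying cells from the blood. The set described here is 10 receptor genes chosen by name (Marco, Msr1, Cd36, Scarb1, Cd163, Stab1, Mrc1, Lrp1, Axl and Mertk), out of 10550 genes in the count table. All 10 were listed, 9 passed the filter on low counts, and Mertk did not. The data are 7 bulk 3′ UMI libraries, in which each RNA molecule is tagged near its 3′ end and counted once. The cells were sorted from untreated livers of male C57BL/6 mice 8 weeks of age, about 10000 cells per sample. The 4 control libraries carried the Commd10fl/fl genotype, that is loxP-flanked Commd10 alleles with no Cre named, and came from littermates. The 3 Commd10-deficient libraries carried the genotype given as Clec4FDCommd10, the same alleles with Cre from the Clec4f locus, a locus that is active in Kupffer cells. All 7 libraries therefore shared the loxP-flanked alleles, and Cre together with the modified Clec4f allele went with the deficient group. COMMD10 belongs to a family of proteins that act with partner complexes in the sorting of membrane cargo such as receptors, and the series title asks whether it maintains Kupffer cells at homeostasis. Transcript counts do not measure receptor protein or its place in the cell.

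These receptors work in layers. Class A receptors (MARCO, MSR1) bind polyanions on microbes and modified lipoproteins, class B receptors (CD36, SR-B1) bind lipids and lipoproteins, and CD163 clears hemoglobin bound to haptoglobin. Stabilin-1 and the mannose receptor take up glycans and remnants of matrix and of hormones, and LRP1 takes up lipoprotein remnants and many protease complexes. AXL and MERTK are kinases of the TAM family. Receptors of that family recognise phosphatidylserine on dying cells through a bridging protein, GAS6 or protein S.

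Sample titles split the controls. Replicates 1 and 2 are called control set 1 here and replicates 3 and 4 control set 2, and neither set holds both genotypes. Control set 1 was far deeper, with 4270240 and 3207144 counts, against 230942 and 267553 in control set 2 and 105462 to 124016 in the Commd10-deficient libraries. Levels are given as CPM, the count scaled to a common library total with TMM library factors. A count of 1 is worth 0.219 CPM in control replicate 1, the deepest, and 9.34 CPM in the shallowest. Set, depth and any batch that goes with them cannot be told apart. The 3 Commd10-deficient libraries were all shallower than every control, so genotype, depth and any such batch go together too. Nothing says that the libraries came from separate mice, so the p-values rest on variation from library to library, which may be technical. Kupffer cell markers, 9 of 9 tested, summed to 29814 to 36619 CPM in controls and 32687 to 35572 CPM in Commd10-deficient libraries, with no marker at 0 in any library. Most of that sum came from Clec4f and Cd5l (control means of 12267 and 11164 CPM). In edgeR 0 of the 9 passed and 3 had an unadjusted p under 0.05, against 24.2% of all tested genes. Their log2 fold changes, Commd10-deficient minus control, were 0.70 (Vsig4), 0.77 (Adgre1) and -0.71 (Id3). A second edgeR model held control set 1, control set 2 and the deficient group as separate levels. Against set 1 and set 2 in turn, Vsig4 was at 0.52 and 0.92, Adgre1 at 0.62 and 0.95 and Id3 at -1.09 and -0.16. The adjusted p was under 0.05 for Vsig4 and Adgre1 against set 2 only and for Id3 against set 1 only. Counts of the targeted gene, Commd10, were 167, 130, 7 and 1 for control replicates 1 to 4 and 0, 4 and 2 for the Commd10-deficient ones. These are too few in the shallow libraries to check the labels, and a 3′ tag may lie outside the deleted stretch. In bulk samples, fewer cells of a type and less RNA per cell cannot be told apart.

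The regions upstream of the 4 tested receptor genes with the smallest p-values are shown because the level of these genes differed most between the groups relative to the spread. Each line gives the 250 bases before the RefSeq gene start, 5′ to 3′ on the gene's strand, on GRCm38.p6 (mm10). Gene positions given further on are from GENCODE, whose starts can differ. The RefSeq start of Mrc1 lies 22 bases inside the GENCODE gene, that of Cd163 lies 5 bases before it, and that of Cd36 lies 52905 bases inside it, so the Cd36 window is not the region before the outermost GENCODE start. The windows are chr1:120505025-120505274 (minus strand) for Marco, chr2:14229164-14229413 (plus) for Mrc1, chr6:124304401-124304650 (plus) for Cd163 and chr5:17835897-17836146 (minus) for Cd36. Capitals mark matches, on either strand, to GAGGAA, the core bound by the macrophage factor PU.1, and to TGCTGA, a core of MAF recognition elements.
Marco: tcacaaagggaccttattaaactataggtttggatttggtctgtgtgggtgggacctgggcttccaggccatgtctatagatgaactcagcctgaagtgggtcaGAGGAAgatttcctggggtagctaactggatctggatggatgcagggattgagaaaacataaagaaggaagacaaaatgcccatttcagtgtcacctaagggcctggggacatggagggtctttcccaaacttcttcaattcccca
Mrc1: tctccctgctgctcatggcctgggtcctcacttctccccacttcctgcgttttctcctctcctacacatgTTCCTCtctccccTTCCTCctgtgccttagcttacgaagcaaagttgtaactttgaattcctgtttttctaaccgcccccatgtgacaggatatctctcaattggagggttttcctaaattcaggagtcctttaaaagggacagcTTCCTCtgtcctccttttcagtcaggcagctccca
Cd163: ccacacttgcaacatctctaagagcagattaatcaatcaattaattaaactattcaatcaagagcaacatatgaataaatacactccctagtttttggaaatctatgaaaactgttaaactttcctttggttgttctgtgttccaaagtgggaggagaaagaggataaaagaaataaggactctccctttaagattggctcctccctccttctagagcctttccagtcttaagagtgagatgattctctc
Cd36: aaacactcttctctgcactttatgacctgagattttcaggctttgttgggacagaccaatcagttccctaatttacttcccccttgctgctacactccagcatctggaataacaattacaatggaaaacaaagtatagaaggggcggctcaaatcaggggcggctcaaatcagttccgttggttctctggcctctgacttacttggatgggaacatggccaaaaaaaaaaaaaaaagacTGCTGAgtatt
Marco held 1 GAGGAA match, 146 to 141 bases before the start, and Mrc1 held 3 on the opposite strand. Cd36 held 1 TGCTGA match, 11 to 6 bases before the start. The Cd163 window held neither motif. GAGGAA occurred in 23.3% and TGCTGA in 16.1% of the 32851 RefSeq windows of the same length. An NRF2 element (TGACNNNGC) and an AP-1 site (TGANTCA) were also searched on both strands and occurred in 10.2% and 6.75% of all windows. Among the 8 receptor genes with an entry, the former matched in Lrp1 only and the latter in 0. No match of one motif overlapped a match of another in the 4 windows printed. The 2 receptor genes with no entry are Msr1 and Scarb1.

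Of the receptor genes, Marco was lower in Commd10-deficient Kupffer cells and was the only one to pass the test between genotypes. Cd163, Cd36, Mrc1 and Msr1 lay higher in every Commd10-deficient library than in every control library, without passing. The levels of Scarb1, Stab1, Lrp1 and Axl overlapped between groups. In the edgeR quasi-likelihood test, 1 of 9 receptor genes was called at an adjusted p under 0.05, against 6.04% of all 3412 tested genes (3.46% higher and 2.58% lower). DESeq2 called 4 of 9 (Marco, Cd163, Cd36 and Mrc1), where it called 10.9% of all tested genes (6.54% higher and 4.37% lower). Limma-voom called 3 of 9 (Marco, Cd36 and Mrc1), where it called 5.92% (4.89% higher and 1.03% lower). At an unadjusted p under 0.05 there were 5 of 9, against 24.2%. The groups did not overlap for 5 of 9, 4 higher and 1 lower, against 25% of all tested genes (13.2% higher and 11.8% lower). The median log2 fold change, Commd10-deficient minus control, was 0.36 over the 9 and -0.05 over all tested genes. Cd36 enters these counts and this median because of its level in the Commd10-deficient group, since only 1 control library exceeded the 43.3 CPM that the filter asks of at least 3 libraries. Over the other 8 receptor genes the groups did not overlap for 4 (3 higher and 1 lower) and 4 had an unadjusted p under 0.05. DESeq2 called 3 of those 8 and limma-voom 2, and their median log2 fold change was 0.11.

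**Figure D1:**
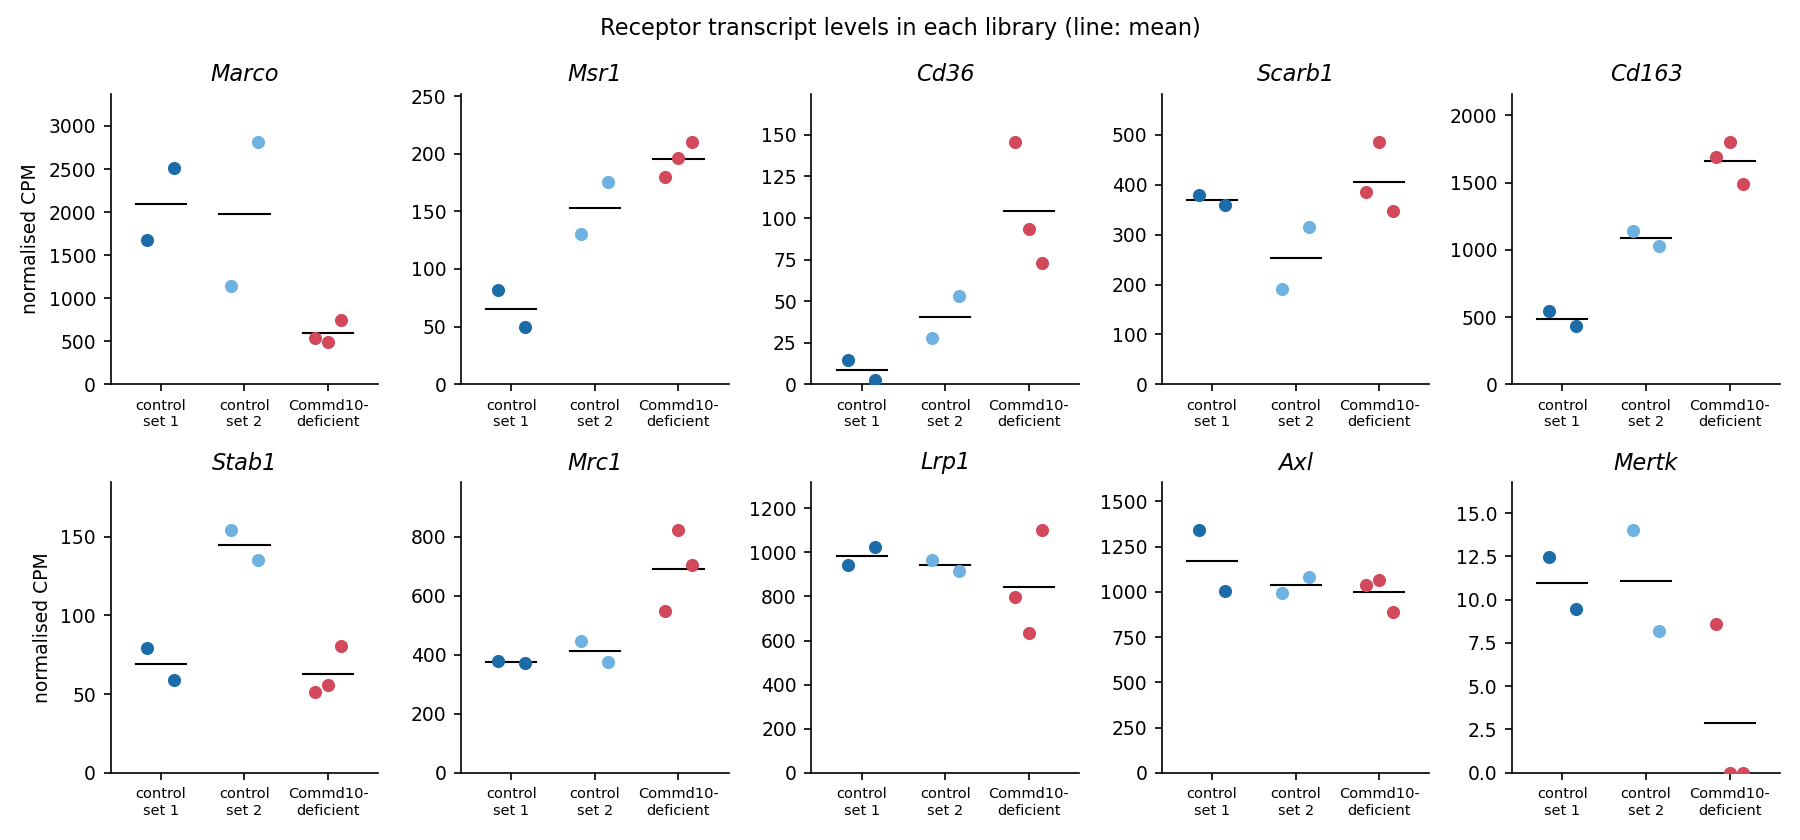
Normalised CPM of the 10 receptor genes in each of the 7 libraries, on linear axes that start at 0 and differ between panels. Points are libraries (2 of control set 1, 2 of control set 2, 3 Commd10-deficient) and lines are means. Marco lies lower in the 3 Commd10-deficient libraries (486 to 752 CPM) than in the controls (1139 to 2814 CPM), while Msr1, Cd36, Cd163 and Mrc1 lie above every control library.

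Marco, the class A receptor for bacteria and particles that marks Kupffer cells in mouse liver, lies on the minus strand of chromosome 1 between positions 120474538 and 120505024 (mm10). Its level was 1673 and 2517 CPM in control set 1, 1139 and 2814 CPM in control set 2, and 540, 486 and 752 CPM in the Commd10-deficient libraries. Both control sets thus spanned a wide range with almost the same centre, and no Commd10-deficient library reached the lowest control. The means were 2036 ± 769 CPM (SD, n = 4) and 593 ± 141 CPM (SD, n = 3). The log2 fold change was -1.78 (SE 0.34, edgeR adjusted p = 0.0164). In a model with control set 1, control set 2 and the deficient group as separate levels, it was -1.82 against control set 1 (adjusted p = 0.00131) and -1.74 against control set 2 (adjusted p = 0.00253). The sets differed from each other by 0.08 (SE 0.34, adjusted p = 0.885). Over pooled counts, 208 in the Commd10-deficient libraries against 932 in control set 2, the ratio of levels was 0.295, with an exact 95% interval of 0.252 to 0.343 that covers counting error alone. Without Commd10-deficient replicate 1 or replicate 2, Marco was at -1.72 (edgeR adjusted p = 0.132) and -1.67 (adjusted p = 0.128). In each of those fits edgeR called 0 of all tested genes, with 583 and 578 at an unadjusted p under 0.05.

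Msr1, the other class A receptor, which takes up modified lipoproteins, is on chromosome 8. It stood at 81.7 and 49.3 CPM in control set 1, at 131 and 176 CPM in control set 2 and at 180, 196 and 210 CPM in the Commd10-deficient libraries. The lowest Commd10-deficient library was only slightly above control replicate 4. The log2 fold change was 0.93 (SE 0.42, edgeR adjusted p = 0.19). It was 1.57 against control set 1 (adjusted p = 0.00339) and 0.35 against control set 2 (adjusted p = 0.508), and the sets differed by -1.23 (set 1 minus set 2, adjusted p = 0.0195). Msr1 and Marco, the class A pair, therefore had fold changes of opposite sign, but whether they differ from each other was not tested.

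Cd36, the class B receptor for fatty acids, oxidised lipoproteins and apoptotic cells, is on chromosome 5 and was sparsely counted. Control set 1 held 66 and 8 counts of it, control set 2 held 6 and 13, and the Commd10-deficient libraries held 17, 10 and 9. Control levels were 14.5, 2.29, 28 and 53.2 CPM, and Commd10-deficient levels were 146, 93.4 and 72.8 CPM. The ranges do not overlap, yet the exact 95% counting interval of control replicate 4 (28.3 to 90.9 CPM) overlaps those of all 3 Commd10-deficient libraries. The log2 fold change was 2.55 (SE 0.80, edgeR adjusted p = 0.0656), and it was 3.57 against control set 1 (adjusted p = 0.00146) and 1.33 against control set 2 (adjusted p = 0.199). Between the control sets Cd36 differed by -2.24 (set 1 minus set 2, adjusted p = 0.0457). Pooled counts put Cd36 at 2.50 times its level in control set 2, with an exact 95% counting interval of 1.40 to 4.62. Without control replicate 4 Cd36 passed, at 3.28 (edgeR adjusted p = 0.021). Within control set 1 replicate 2 stood far below replicate 1 although both are deep libraries, with intervals of 0.99 to 4.52 and 11.2 to 18.4 CPM.

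Scarb1, which encodes SR-B1, the receptor that exchanges cholesterol with high-density lipoprotein, is on chromosome 5. Its level was 379.9 and 360.3 CPM in control set 1, 191 and 315 CPM in control set 2, and 386, 486 and 348 CPM in Commd10-deficient cells. Control set 2 lay below all other libraries, and the Commd10-deficient range overlapped that of control set 1. The log2 fold change was 0.36 (SE 0.30, 95% interval -0.29 to 1.02, edgeR adjusted p = 0.498). Hepatocytes also express Scarb1. The 12 hepatocyte markers summed to 4667 to 9800 CPM in controls, where control set 2 was highest, and to 6832 to 7330 CPM in the Commd10-deficient libraries. Their part in the Scarb1 level was not tested.

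Cd163, the receptor for hemoglobin bound to haptoglobin, lies on the plus strand of chromosome 6 between positions 124304656 and 124330527. Its level was 542 and 434 CPM in control set 1, 1143 and 1031 CPM in control set 2, and 1689, 1803 and 1488 CPM in the Commd10-deficient libraries. The 3 sets of libraries formed separate ranges, each tight within itself. The means were 787 ± 352 CPM (SD, n = 4) and 1660 ± 160 CPM (SD, n = 3), and the log2 fold change of 1.09 (SE 0.33) did not pass (edgeR adjusted p = 0.0626). It was 1.77 against control set 1 (adjusted p = 5.1e-05) and 0.61 against control set 2 (adjusted p = 0.0561). The difference between the sets, -1.15 (SE 0.23, adjusted p = 0.00369), was thus larger in size than that between genotypes against control set 2. With control set 2 alone in the fit the value was 0.62 (adjusted p = 0.0301), and without control replicate 3 or 4 it passed as well, at 1.31 (adjusted p = 0.0472) and 1.25 (adjusted p = 0.0409).

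Mrc1, the mannose receptor, is on the plus strand of chromosome 2 between positions 14229392 and 14332057. Its level was 378 and 371 CPM in control set 1, 448 and 376 CPM in control set 2, and 549, 822 and 703 CPM in Commd10-deficient cells. All 3 Commd10-deficient libraries lay above the highest control. The means were 393 ± 36.5 CPM (SD, n = 4) and 691 ± 137 CPM (SD, n = 3), with a log2 fold change of 0.82 (SE 0.26, edgeR adjusted p = 0.0656). Against control set 1 it was 0.88 (adjusted p = 0.0142) and against control set 2 it was 0.75 (adjusted p = 0.0449), while the sets differed by -0.14 (SE 0.26, adjusted p = 0.748). Mrc1 and Marco were the receptor genes called against each control set in that model, 2 of 9 against control set 2, where 19.1% of all tested genes were called (8.7% higher and 10.3% lower). Against control set 1 there were 5 of 9, 4 higher and 1 lower, where 19.3% were called (11.6% higher and 7.71% lower). The 4 higher include Cd36, which passed the filter on low counts through its level in the Commd10-deficient group. These contrasts share the Commd10-deficient libraries.

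**Figure D2:**
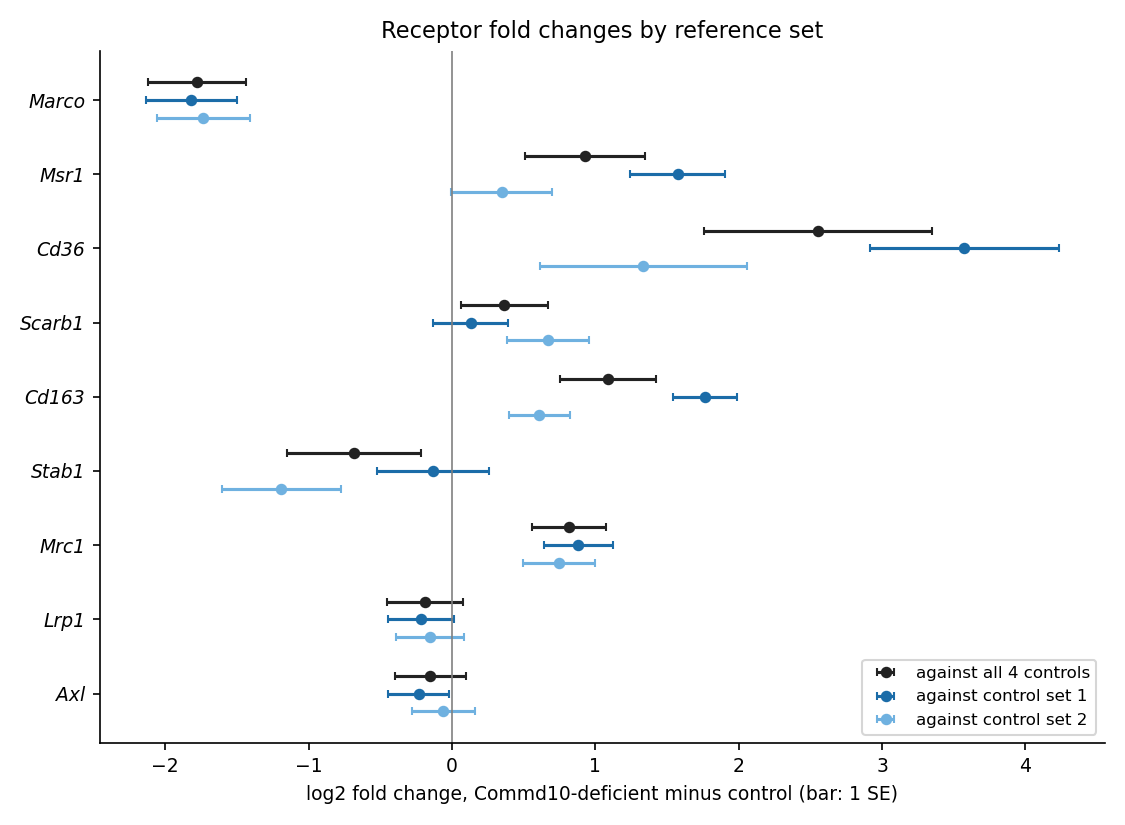
Log2 fold change, Commd10-deficient minus control, of the 9 tested receptor genes against all 4 controls (black), control set 1 (dark blue) and control set 2 (light blue). Points are edgeR estimates and bars are 1 SE. Marco (-1.82 and -1.74) and Mrc1 (0.88 and 0.75) hold nearly the same value against either set, while Cd36, Cd163 and Msr1 lie higher against control set 1.

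Stab1, which encodes stabilin-1, a receptor for modified lipoproteins and phosphatidylserine, is on chromosome 14. It stood at 79.5 and 58.8 CPM in control set 1, at 154 and 135 CPM in control set 2 and at 51.4, 56.0 and 80.8 CPM in the Commd10-deficient libraries. Commd10-deficient cells therefore overlapped control set 1 and lay below control set 2. The log2 fold change was -0.68 (SE 0.47, 95% interval -1.68 to 0.32, edgeR adjusted p = 0.40). Against control set 1 it was -0.13 (adjusted p = 0.847) and against control set 2 it was -1.19 (adjusted p = 0.0516), with the sets apart by -1.06 (adjusted p = 0.0409). The Commd10-deficient libraries held 22 Stab1 counts in all. Exons of Nt5dc2 overlap those of Stab1 on the opposite strand, and the treatment of strand is not given in the sources used here, so reads in that stretch may belong to either gene.

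Sinusoidal endothelial cells of the liver also express Stab1, Mrc1 and Cd36. Their 13 markers summed to 1207 and 1133 CPM in control set 1 and to 999 and 843 CPM in control set 2. The sums in the Commd10-deficient libraries were 785 to 825 CPM. In the deep control set 1 none of the 13 was at 0, in control set 2 there were 2 and 1 at 0, and in the Commd10-deficient libraries 2 to 4, with Kdr at 0 in all 5 shallow libraries. Of the 5 markers tested, 0 passed in edgeR and 2 had an unadjusted p under 0.05. These were Pecam1 (-1.07, adjusted p = 0.185) and Cdh5 (-1.39, adjusted p = 0.181). Gpr182 was at -0.66, Clec4g at 0.09 and Stab2, the stabilin of endothelial cells, at 0.08. In the model with 3 levels Cdh5 was at -2.01 against control set 1 (edgeR adjusted p = 0.00161). Against control set 2 Cdh5 was at 0.007 (adjusted p = 0.993). The sets differed for Cdh5 by 2.02 (set 1 minus set 2, adjusted p = 0.0035). Pecam1 was at -0.90 against control set 1 and at -1.27 against control set 2 (adjusted p = 0.177 and 0.0755). The part of endothelial RNA in the levels of Stab1, Mrc1 and Cd36 was not tested.

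Lrp1, the large receptor for lipoprotein remnants and protease complexes, is on chromosome 10. Its level was 942 and 1024 CPM in control set 1, 966 and 916 CPM in control set 2, and 797, 635 and 1100 CPM in the Commd10-deficient libraries. The Commd10-deficient range enclosed that of the controls. The log2 fold change was -0.19 (SE 0.26, edgeR adjusted p = 0.707), with a 95% interval of -0.75 to 0.38.

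Axl, a TAM receptor kinase that binds GAS6 on dying cells, is on chromosome 7. It stood at 1339 and 1002 CPM in control set 1, at 994 and 1084 CPM in control set 2 and at 1037, 1065 and 889 CPM in Commd10-deficient cells. The groups overlapped, and the log2 fold change was -0.15 (SE 0.25, 95% interval -0.68 to 0.38, edgeR adjusted p = 0.749). A change of the size seen for Marco lies outside these intervals for Axl and for Lrp1. Between the control sets Axl differed by 0.17 (adjusted p = 0.64) and Lrp1 by 0.06 (adjusted p = 0.881).

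Mertk, the TAM receptor kinase of macrophage efferocytosis, is on chromosome 2, and a fall in its level could not be resolved at this depth. Control set 1 held 57 and 33 counts of it (12.5 and 9.46 CPM), control set 2 held 3 and 2, and the Commd10-deficient libraries held 1, 0 and 0. For the libraries at 0, a floor of 3 counts is 24.3 CPM or more, above every control level. The pooled count of 1 is 0.258 times the control set 1 level, with an exact 95% counting interval of 0.00645 to 1.47. That interval includes an unchanged level, so a fall could not be detected at this depth. A rise beyond 1.47 times lies outside it, on counting error alone.

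**Figure D3:**
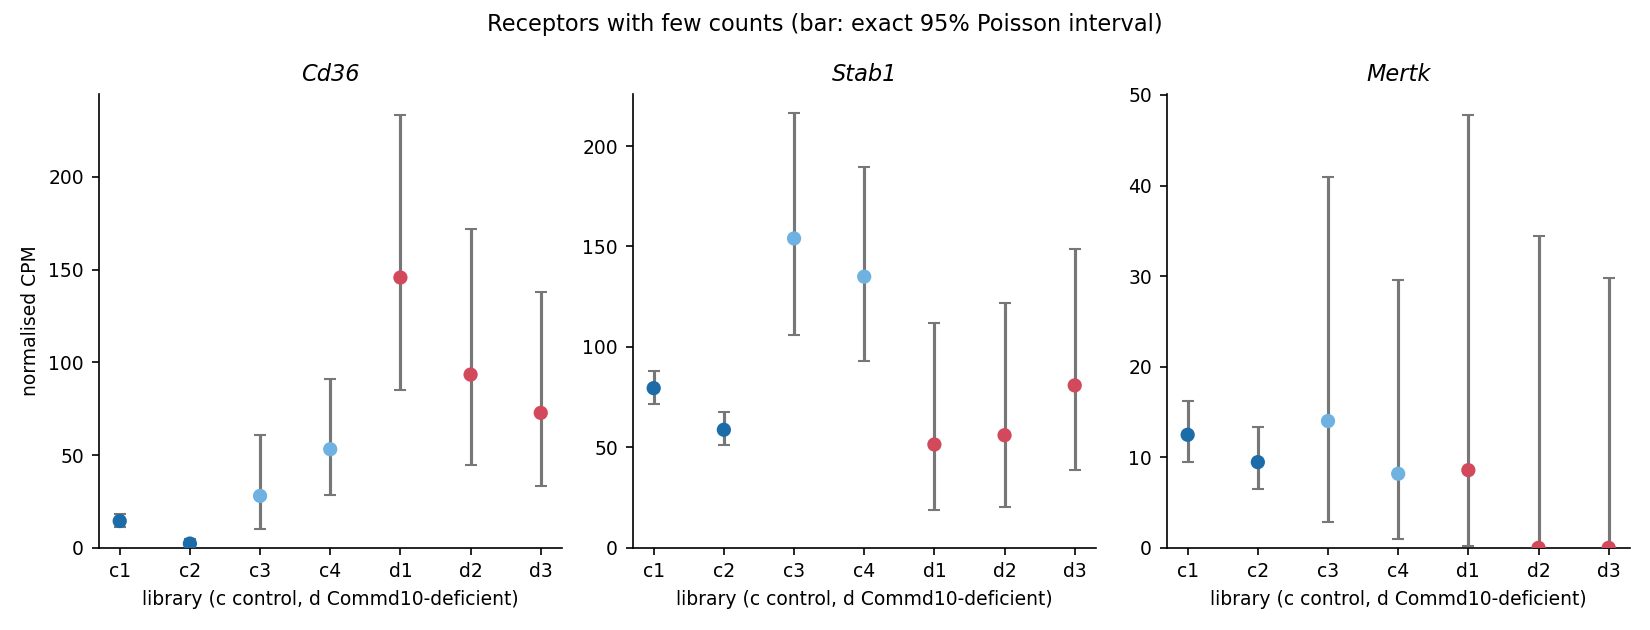
Normalised CPM of Cd36, Stab1 and Mertk in each library (c1 to c4 control, d1 to d3 Commd10-deficient), with exact 95% Poisson intervals that cover counting error only. Intervals are narrow in the deep control replicates 1 and 2 and wide elsewhere, and those of Mertk in the Commd10-deficient libraries reach 29.8 to 47.8 CPM.

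How far receptor levels vary with no difference in genotype is shown by the 2 control sets. Between them, 4 of 9 receptor genes were called, all lower in control set 1 (Cd163, Msr1, Stab1 and Cd36), against 18.7% of all tested genes (7.8% higher and 10.9% lower in set 1). Cd36 is among these 4 although only 1 control library exceeded the filter, so it was tested because of the Commd10-deficient group. Marco, Scarb1, Mrc1, Lrp1 and Axl did not pass there. Leaving out 1 control library at a time left 1 to 3 calls, and 2 remained when each library was thinned to the total of the shallowest, namely Cd163 (-0.95, edgeR adjusted p = 0.0226) and Msr1 (-1.80, adjusted p = 0.0312). The call of Stab1 was lost without any 1 of the 4 controls, and that of Cd36 without replicate 2, 3 or 4. For Cd36, Cd163 and Msr1 the order of the levels was control set 1, then control set 2, then the Commd10-deficient libraries.

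**Figure D4:**
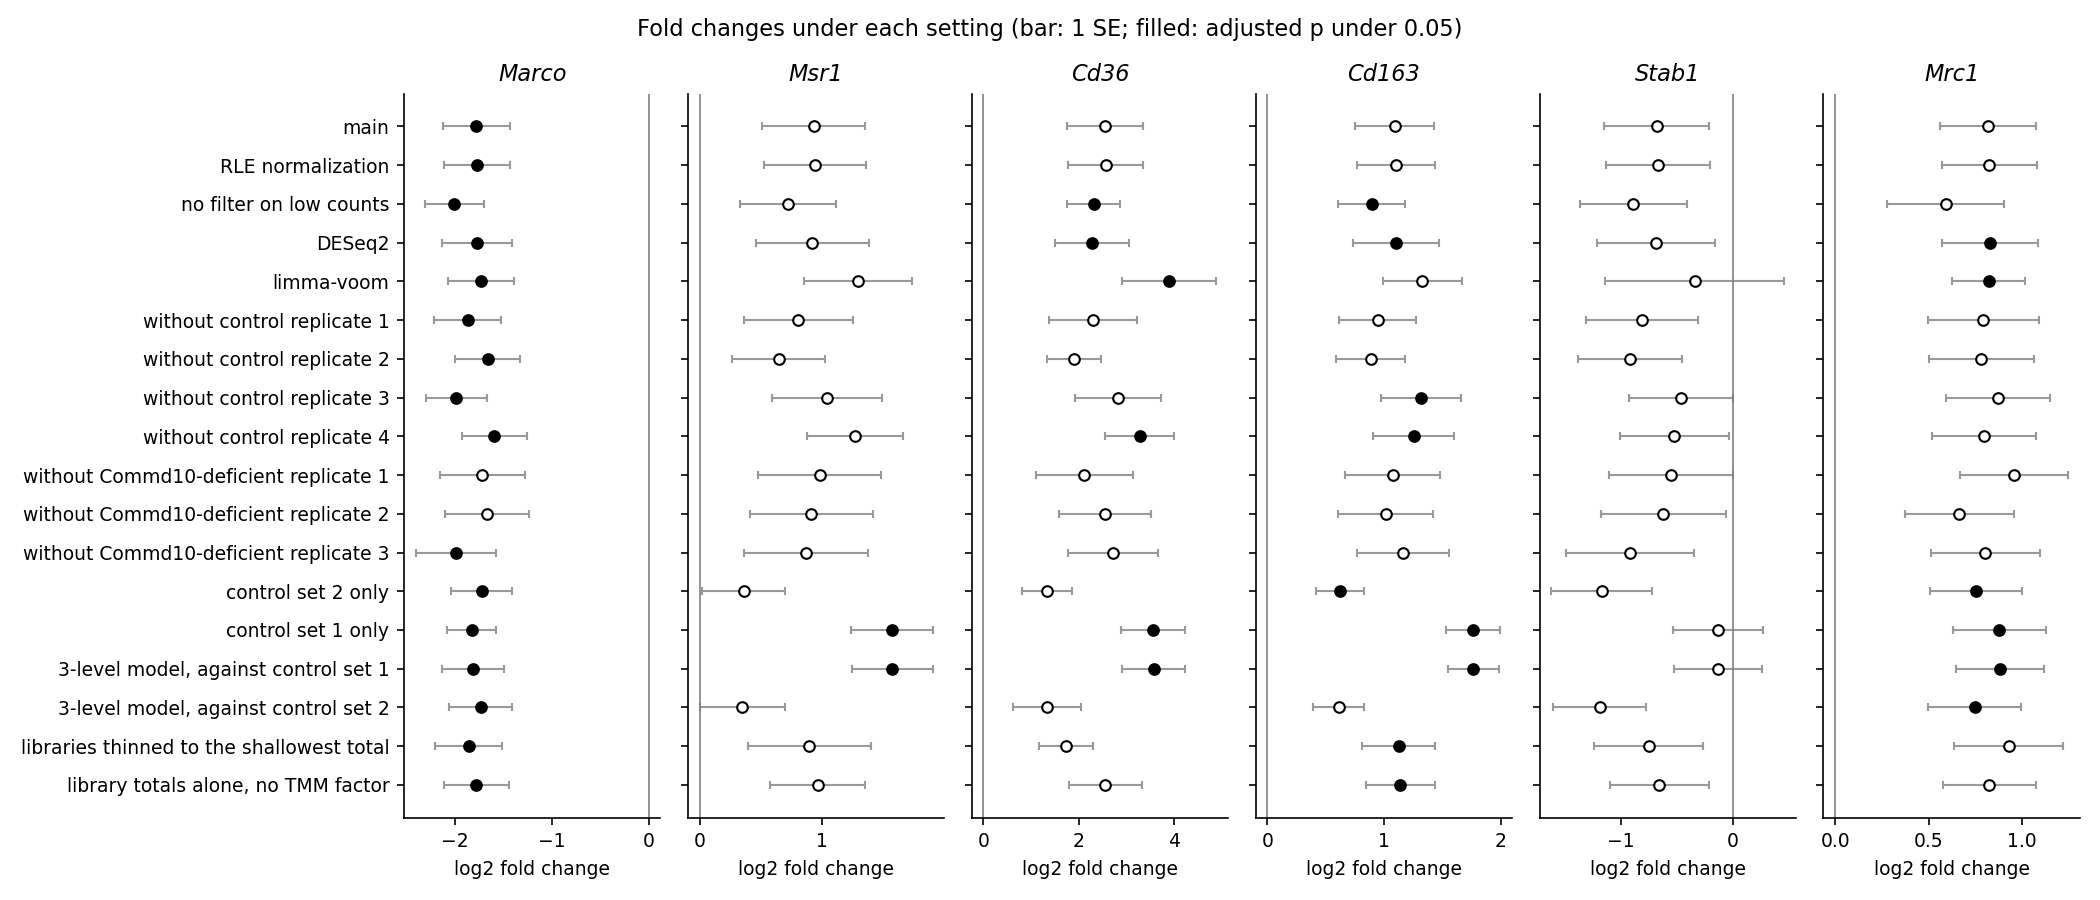
Log2 fold change, Commd10-deficient minus control, of 6 receptor genes under the setting reported and 17 other settings. Points are estimates, bars 1 SE, and filled points have an adjusted p under 0.05. Marco stays between -2.01 and -1.59 and loses its call without Commd10-deficient replicate 1 or 2. Cd163 (0.61 to 1.77), Cd36 (1.33 to 3.57) and Msr1 (0.35 to 1.57) move with the controls used. Cd36 reaches 3.90 in limma-voom with all 4 controls.

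Genes that work with these receptors were read from a list of 62 names in 4 roles, of which 53 were in the table and 35 were tested. Of the 35, 1 rose and 0 fell in edgeR, with 8 at an unadjusted p under 0.05 and a median log2 fold change of -0.15. These are 2.86% called and 22.9% at an unadjusted p under 0.05, against 6.04% and 24.2% of all tested genes, whose median was -0.05. Of the 35, 3 (Pros1, Abca1 and Npc2) had fewer than 3 control libraries over 43.3 CPM. They passed the filter through the Commd10-deficient group, and these counts and shares include them. Pros1 and Abca1 are among the 8 at an unadjusted p under 0.05. None of the 6 tested bridging molecules and ligands passed (3 at an unadjusted p under 0.05; C1qc passed in DESeq2 and limma-voom, Pros1 in DESeq2). Pros1, which encodes protein S, a bridge between phosphatidylserine and some TAM receptors, was at 1.57 (SE 0.48, edgeR adjusted p = 0.0623). It passed the filter on low counts through the Commd10-deficient group alone, since 0 control libraries exceeded 43.3 CPM. Control replicates 1 to 4 held 98, 110, 5 and 7 Pros1 counts, against 6, 13 and 8 in Commd10-deficient libraries. C1qc, a chain of complement C1q, which opsonises dying cells, went from a mean of 7745 to 12739 CPM (0.72, edgeR adjusted p = 0.0562), while its partner chains C1qa and C1qb were at -0.02 and -0.38. C1qc passed against control set 1 (0.70, adjusted p = 0.00828) and against control set 2 (0.73, adjusted p = 0.00849). Of 10 other receptors 0 passed in edgeR, with 2 at an unadjusted p under 0.05, and neither of those passed in DESeq2 or limma-voom. The scavenger receptor gene Scarf1, which passed the filter through the controls, was at -1.20 (SE 0.46, adjusted p = 0.128) and the lipopolysaccharide co-receptor gene Cd14 at 0.68 (SE 0.25, adjusted p = 0.119). Timd4, which encodes the phosphatidylserine receptor TIM4, a protein named among the markers of the sorted cells, was at -0.20 (adjusted p = 0.738).

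Among 4 tested genes of the engulfment machinery 0 passed in edgeR, and 1 had an unadjusted p under 0.05. That gene was Abca1, the cholesterol exporter that unloads lipid from engulfed cells, at 2.56 (SE 0.83, edgeR adjusted p = 0.0847). Control set 1 held 139 and 7 Abca1 counts and control set 2 held 12 and 21, against 26, 25 and 20 in Commd10-deficient libraries. Of the controls only replicates 3 and 4 exceeded 43.3 CPM for Abca1, so that it passed the filter through the Commd10-deficient group. Control replicate 2 was the lowest library for Abca1 and for Cd36 alike. In the model with 3 levels Abca1 was at 1.52 against control set 2 (edgeR adjusted p = 0.346) and at 3.62 against control set 1 (adjusted p = 0.0442). Without control replicate 2 it passed, at 1.96 (adjusted p = 0.0182), and without any other 1 library it did not (adjusted p = 0.0678 to 0.323). With control set 2 alone in the fit it passed (1.52, adjusted p = 0.00626) and with control set 1 alone it did not (3.61, adjusted p = 0.093). It passed in DESeq2 (2.35, adjusted p = 0.0295) and limma-voom (4.44, adjusted p = 0.0328). Rhog, a GTPase of engulfment, was at -0.41 (adjusted p = 0.331).

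In the role of regulators, shedding enzymes and cargo handling, 1 of 15 tested genes rose. Adam10, a membrane protease that sheds the ectodomains of many receptors, had 211 and 114 counts for control set 1, 16 and 14 for control set 2, and 25, 10 and 16 for the Commd10-deficient libraries. Its mean level was 52.7 ± 17.8 CPM (SD, n = 4) in controls and 146 ± 62.1 CPM (SD, n = 3) in Commd10-deficient cells, a log2 fold change of 1.57 (SE 0.42, edgeR adjusted p = 0.0428). The call was lost under 9 of 17 other settings, among them without any 1 of the Commd10-deficient libraries (adjusted p = 0.0814 to 0.235), without control replicate 1 or 2 (0.0714 and 0.0705) and against control set 2 (1.15, adjusted p = 0.083). Adam17, the protease that sheds CD163 and MERTK, was at -0.35 (adjusted p = 0.575). Ucp2, a mitochondrial carrier used by macrophages during uptake of dying cells, was at 0.80 (adjusted p = 0.199). Haptoglobin, Hp, the partner of hemoglobin in CD163 uptake, was at -0.90 (adjusted p = 0.253). The edgeR model with 3 levels put Ucp2 at 1.62 against control set 1 and 0.26 against control set 2 (adjusted p = 0.000145 and 0.42). Hp was there at -1.43 and 0.10 (adjusted p = 0.00375 and 0.861). Between the sets Ucp2 differed by -1.36 and Hp by 1.53 (set 1 minus set 2). Exons of Dnajb13 overlap those of Ucp2 on the opposite strand. Hmox1, which degrades the heme that CD163 delivers, was at -0.34 (adjusted p = 0.468), and Nr1h3, the LXR alpha gene, at -0.35 (adjusted p = 0.463).

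**Figure D5:**
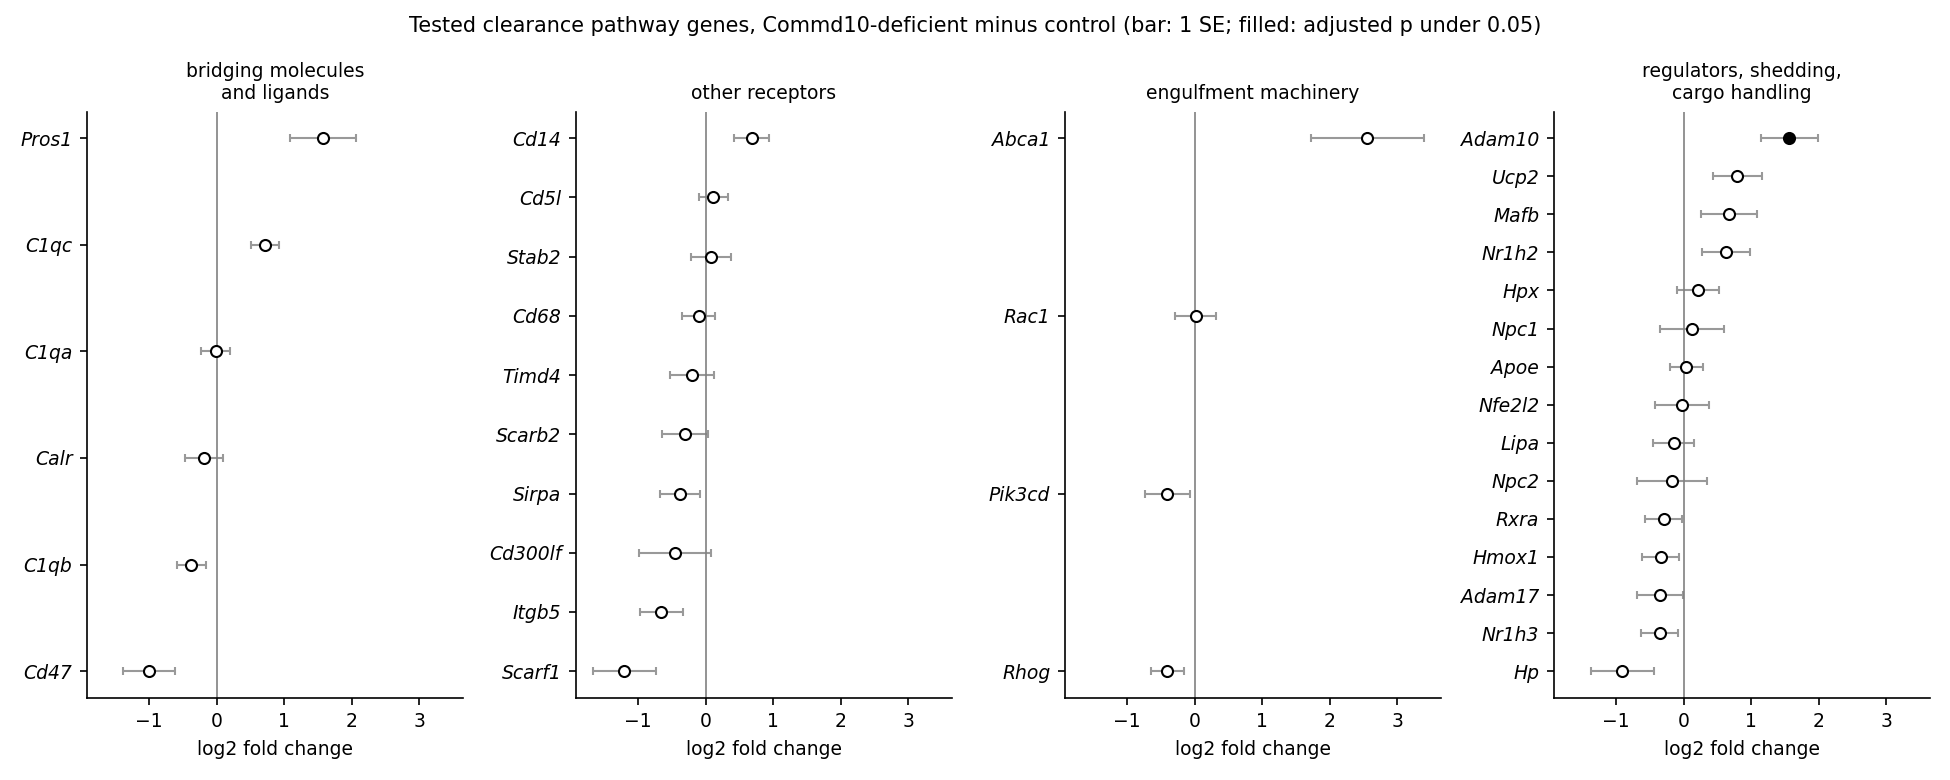
Log2 fold change, Commd10-deficient minus control, of the 35 tested genes that work with the receptors, by role. Points are edgeR estimates, bars 1 SE, and the filled point marks the only gene with an adjusted p under 0.05, Adam10 at 1.57. The other 34 lie between -1.20 and 2.56.

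The tested genes whose pattern over the 7 libraries was nearest to that of Marco were Oxld1, Icam1 and Cox4i1. After each gene was centred on its own mean of log2 CPM, they differed from Marco by 0.19, 0.22 and 0.25 on average, against a median of 0.94 over all tested genes. Icam1, an adhesion molecule, was at 268 and 291 CPM in control set 1, at 210 and 331 CPM in control set 2 and at 103, 74.7 and 121 CPM in Commd10-deficient cells. Within control set 2, Icam1 was higher in replicate 4 than in replicate 3, as Marco was. All 3 genes were picked for nearness to Marco over these same libraries, so their likeness to it is a description and no test. Cox4i1, a subunit of cytochrome c oxidase, was at 1278, 1266, 1111 and 1370 CPM in the controls and at 386, 327 and 501 CPM in the Commd10-deficient libraries. Oxld1 rested on 1, 1 and 2 counts in the latter.

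Markers of monocytes and of macrophages derived from them summed to 123 to 163 CPM in controls and 280 to 472 CPM in the Commd10-deficient libraries, over the 7 of 10 listed. Ms4a7, the only called gene of the list, rose by 1.66 on the log2 scale (edgeR adjusted p = 0.0178), with means of 67.0 ± 5.57 CPM (SD, n = 4) against 211 ± 65.9 CPM (SD, n = 3). The monocyte genes Ly6c2, Ccr2 and Cx3cr1 were too low to be tested. Ly6c2 had 8, 5, 1 and 0 counts over the controls and 4, 0 and 2 over the Commd10-deficient libraries, or 1.96 and 16.8 CPM as means. For Ccr2 the counts were 6, 5, 0 and 1 against 3, 1 and 0 (means of 1.71 and 11.7 CPM), and for Cx3cr1 they were 28, 13, 0 and 0 against 3, 2 and 10 (means of 2.46 and 41.8 CPM). The mean levels of all 3 were thus higher in the Commd10-deficient group, on few counts. Trem2, the other tested gene of the list, was at 0.27 (edgeR adjusted p = 0.721). Chil3, not tested, went the other way, with 1, 6, 1 and 1 counts over the controls and 0, 0 and 0 over the Commd10-deficient libraries. Cd9, also not tested, had means of 7.11 and 11.7 CPM. The part of such cells in the levels of Cd36, Msr1, Mrc1 and Marco was not tested.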

How the data were processed

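Kupffer cells were sorted as CD45+CD11bloF4/80+Ly6G-Ly6C- cells, per the series' design text, and bulk MARS-Seq libraries were made, per the labels' protocols. The authors deposited raw counts, 1 column per sample, called UMI-corrected in the table's name. Beside each stands a deposited normalized signal, which equals the raw count divided by 1 factor per sample up to rounding and was used only for that check. The submitters' processing notes name build mm10 and the tools HTSeq, cutadapt and DESeq2. Versions, aligner and strand setting: not given in the sources used here. The number of unmatched columns was 0.

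Raw counts were tested with edgeR 4.0.16 (R 4.3.3): quasi-likelihood F test with robust shrinkage, TMM factors, library sizes from table totals, the default filter (10 counts at the median depth, 15 in total, 7138 of 10550 genes not tested) and Benjamini-Hochberg adjustment over all 3412 tested genes, called under 0.05. Each standard error is the fold change divided by the root of F. Contrasts with each control set came from a model with 3 levels. In fits with fewer libraries the same genes were tested. Count intervals are exact Poisson at 95%; PCR duplicates are removed by UMI only as the authors did it, so intervals and floors (3 counts) cover counting error only. Alternatives used RLE, no filter, DESeq2 1.42.0, limma-voom (limma 3.58.1), thinning (seed 7) and left-out libraries; the edgeR procedure was tested on simulated data. Promoter sequences and coordinates come from RefSeq and GENCODE M21 on mm10.

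The receptor genes and the gene lists were chosen with earlier results of these data known. Named are the 10 receptors, and in each role of the pathway list the called genes and up to 2 further genes with the smallest p, for Marco the 3 nearest patterns; C1qa, C1qb, Timd4, Stab2, Pecam1, Cdh5, Gpr182, Clec4g, Adam17, Hmox1, Nr1h3 and single markers were chosen after their values were seen. Replicate numbers follow record order and pair no samples. No pair of libraries in a set agreed within sampling noise (chi-square per degree of freedom at least 1.54).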

Additional observations from a re-analysis of the deposited data

Results flagged for a closer look

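Mrc1 in the 4 control libraries was the 1 receptor gene of 10 in which a control library stood apart from the other 3. Control replicate 3 was at 448 CPM and the others at 371 to 378 CPM, so that the gap took up 0.912 of the whole range, above Dixon's critical value for 4 samples at the 95% level. Replicate 3 held 96 counts, whose exact 95% counting interval of 363 to 547 CPM takes in the other 3 controls. By chance about 1 in 20 such groups exceeds that value. The Commd10-deficient libraries (549 to 822 CPM) lay above that library too, and without it the Mrc1 fold change was 0.87.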

How the results depend on the processing

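No paired analysis was possible because replicates were numbered by record order, so equal numbers in the 2 groups do not mark paired samples. Between genotypes the sign of each of the 9 tested receptor genes held under the 17 alternatives (16 planned; library totals alone was added after seeing the data), and the call changed in 25 of 154 values (1 of the 154 is of Mertk, with no filter). The 206 genes called, of 3412 tested, became 514 of 10550 with no filter, 372 in DESeq2 and 202 in limma-voom. With thinned libraries there were 226, and with totals alone 224. With control set 2 or 1 only there were 692 and 657. In the model with 3 levels there were 658 against set 1 and 650 against set 2. When 1 library was left out there were 0 to 271. The 1 receptor called (Marco), of 9 tested, became 3 of 10 with no filter, 4 in DESeq2 and 3 in limma-voom. There were 3 and 5 receptors called with control set 2 or 1 only, and 5 and 2 in the model with 3 levels. With thinned libraries there were 2, with totals alone 2, and with 1 library left out 0 to 3. With 1 library left out Marco ranged from -1.99 to -1.59, Cd36 from 1.90 to 3.28 and Cd163 from 0.89 to 1.31. Calls were gained by Msr1 with control set 1 only (1.57) and in the model with 3 levels against set 1 (1.57). Cd36 passed the filter on low counts through its level in the Commd10-deficient group, and the counts of receptors above include it where called. Cd36 was called with no filter (2.32), in DESeq2 (2.28), in limma-voom (3.90), with control set 1 only (3.57) and against set 1 (3.57). Cd163 was called with no filter (0.89), in DESeq2 (1.10), with control set 2 or 1 only (0.62 and 1.76), against set 1 (1.77), with thinned libraries (1.13) and with totals alone (1.14). Mrc1 was called in DESeq2 (0.83), limma-voom (0.82), with control set 2 or 1 only (0.75 and 0.88) and against set 1 and set 2 (0.88 and 0.75). Between control sets, the 637 genes called became 331 with thinned libraries and 157 to 450 with 1 control left out, where a lone library is assumed to vary like the other groups, and the 4 receptors became 2, and 1 to 3. With thinned libraries Cd36 was at -1.50 and Stab1 at -1.05, no longer called. With 1 control left out Cd36 ranged from -4.02 to -1.45, Stab1 from -1.26 to -0.82 and Msr1 from -1.60 to -0.87. Marco, not called there, ranged from -0.44 to 0.89 and changed sign without control replicate 2 (-0.20) or 3 (-0.44), and Axl ranged from -0.015 to 0.41 and did so without replicate 1 (-0.015). Hp changed sign with control set 2 only (0.11) and in the model with 3 levels against it (0.10). The cause of these changes was not tested, except that fewer samples enter some fits. At 9.34 CPM per count in the shallowest library, a fall of Mertk cannot be resolved.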
